A study of Mus musculus with 6 samples.

Results

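Of the 34797 names of transcripts and regions on the array, 4429 were intergenic noncoding transcript regions, which the array design names by position and strand in place of a gene symbol. Members were chosen by that name alone, as a numbered chromosome, a start, an end and the letter F or R for the forward or reverse strand, and 15604 of the 55681 probes that are no controls (28.0%) carried such a name. The deposited probe annotation describes them as long intergenic noncoding RNAs. Another 577 probes with names of this kind on the X chromosome fell outside the rule. The regions lay on 19 chromosomes, with 2231 on the forward and 2198 on the reverse strand, and all 15486 probes with a listed position in the mouse build mm9 lay inside its region and on its strand.

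Expression was measured in the cerebellum of pups at postnatal day 1 (P1), whose strain background is labelled C57BL/6, born to C57BL/6J dams fed an amino acid-based AIN-93G diet with folic acid (FA) at 2 mg/kg or at 20 mg/kg from before mating through pregnancy. Each single-colour array was hybridized with cyanine-3-labelled cRNA from a pool of 3 pups of the same sex, each from a different dam, and there was 1 array at 2 mg and 2 arrays at 20 mg for each sex. The second pool at 20 mg was a repeated RNA extraction from another batch, and the single array at 2 mg of each sex has no replicate of its own. A tissue field of the sample labels reads whole brain where the titles name the cerebellum, and on both 2 mg arrays 12 of 12 cerebellar, 8 of 8 forebrain and 4 of 4 choroid plexus marker genes were well above background, which does not tell these labels apart.

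Long intergenic noncoding RNAs are RNA polymerase II transcripts outside protein-coding genes that hold no long open reading frame. Many are spliced and polyadenylated like mRNA, most are less abundant and more restricted in tissue than mRNA, and a number of them are transcribed next to genes of developmental transcription factors or from the opposite strand of a shared promoter. In brain the best known include Malat1, which gathers in nuclear speckles, Meg3, an imprinted transcript, and Sox2ot, which overlaps the gene of the neural progenitor factor Sox2. A strand-specific probe of 60 bases has the sequence of the transcript it reports and binds the labelled cRNA, which is complementary to that transcript. Each strand of a place thus has probes of its own.

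The regions had a median length of 10745 bp, with quartiles at 1791 bp and 25940 bp. Up to 10 probes targeted a region, most often 3 (1726 regions) or 5 (955 regions), and 660 regions had 1 probe. At 1042 places both strands were named as separate regions, and at 2345 places 1 strand was named. The sequences printed here come from the deposited probe annotation. The first set shows how opposite strands of a place were measured, with the bases that the probes share as reverse complements in capitals. At chr5:35975265-35982561 the probes share 34 bases and both were well above background on all 6 arrays. At chr3:9401052-9415202 they share 58 bases, and the reverse-strand probe was well above background on all 6 arrays while the forward-strand probe was on 0 of them.

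chr5 forward-strand probe (chr5:35976912-35976971): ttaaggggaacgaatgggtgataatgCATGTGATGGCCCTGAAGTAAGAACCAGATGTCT
chr5 reverse-strand probe (chr5:35976938-35976997): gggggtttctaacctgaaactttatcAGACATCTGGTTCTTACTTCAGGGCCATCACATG
chr3 forward-strand probe (chr3:9409156-9409215): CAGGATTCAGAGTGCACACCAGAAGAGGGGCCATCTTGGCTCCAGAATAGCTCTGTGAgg
chr3 reverse-strand probe (chr3:9409154-9409213): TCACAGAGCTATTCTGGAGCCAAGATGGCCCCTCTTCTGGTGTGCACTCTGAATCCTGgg

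The share of region probes that the scanner software flagged as well above background was 47.3% on the female 2 mg array and 50.3% on the male 2 mg array. At 20 mg it was 58.1% and 8.70% on the arrays labelled female replicate 1 and replicate 2, and 27.5% and 39.1% on those of male replicate 1 and replicate 2. Probes of RefSeq coding transcripts gave 76.8% and 78.4% at 2 mg, with 83.1%, 33.9%, 69.7% and 69.6% at 20 mg in the same order. The region probes were thus the lower list on 6 of 6 arrays, by a mean of 30.1 percentage points ± 6.35 (SD, n = 6 arrays; exact permutation test on the paired arrays, two-sided p = 0.0312, the smallest that 6 arrays can give, and 0.0391 after Benjamini-Hochberg adjustment over 5 such comparisons of shares). The same probes were read on every array, so the p-values of these comparisons of shares do not measure the spread between probes or regions. The array labelled female 20 mg replicate 2 stood apart, with 23.3% of all probes well above background against 51.1% to 71.9% on the other 5 arrays. The counts of probes past 2.5-fold by dose are given with and without it.

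**Figure D1:**
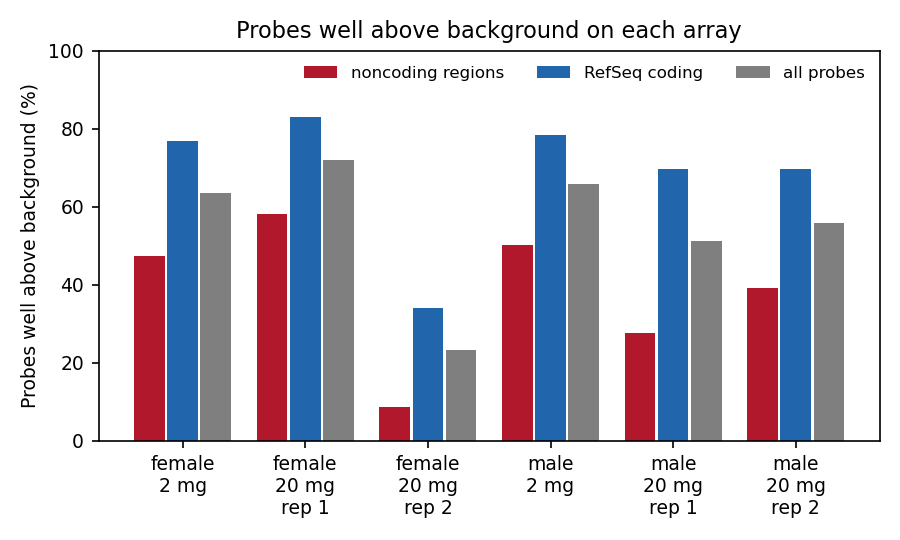
Share of probes well above background (%, vertical axis) on each of the 6 arrays, for the noncoding region probes, the RefSeq coding probes and all probes that are no controls, with 1 bar per list and no error bars since each bar is a single array. The region bar is the lowest of the 3 on each array and falls to 8.70% for female 20 mg replicate 2.

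On both 2 mg arrays together, 6996 of the 15604 region probes (44.8%) were well above background, against 75.6% of the 26536 coding probes. None of the 6 arrays detected 37.4% of the region probes, where the coding value was 15.5%, and all 6 detected 6.81% (1062 probes) against 33.5%. On the 5 arrays other than female 20 mg replicate 2 the share was 22.6% against 64.7%. The median processed signal of the region probes was 27.6 and 35.8 on the female and male 2 mg arrays, where coding probes gave 391 and 483. Among probes well above background alone, the medians were 133 and 151 for regions and 1020 and 1140 for coding transcripts. These are distributions over probes, and since brightness also depends on the probe, the signal of a region says nothing of its amount relative to a single other transcript.

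Detection was uneven within regions. Every probe was well above background on both 2 mg arrays in 1051 of the 4429 regions (23.7%), some but not all in 2119 (47.8%), and none in 1259 (28.4%). Among the 1726 regions with 3 probes, 515 had 0, 498 had 1, 299 had 2 and 414 had 3 probes well above background. Probes near the start of a region were detected about as often as those near its end, with 48.2% in the bin at the 5′ end and 44.4% in the bin at the 3′ end when regions were split into 5 equal bins. Detection ranged from 40% in regions under 1 kb to 47.6% in those of 1 to 10 kb, and by chromosome from 35.2% on chromosome 9 to 54.7% on chromosome 19.

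Base composition moved with detection more than length or position did. Region probes of over 60% GC were well above background on both 2 mg arrays in 85.7% of 329 cases, those of over 50% to 60% in 60.5%, and those of over 30% to 40% in 38.2%. On each array, probes over 60% GC exceeded those at or under 40%, by a mean of 42.3 percentage points ± 12 (SD, n = 6 arrays; exact permutation test, two-sided p = 0.0312, adjusted 0.0391). Coding probes spanned less, from 73.5% at or under 30% GC to 89.0% over 60%. Between 30% and 40% GC the region share of 38.2% stood beside 74.8% for coding probes, and over 60% GC the shares were 85.7% and 89.0%. Probes over 60% GC made up 2.11% of region probes and 0.275% of coding probes.

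**Figure D2:**
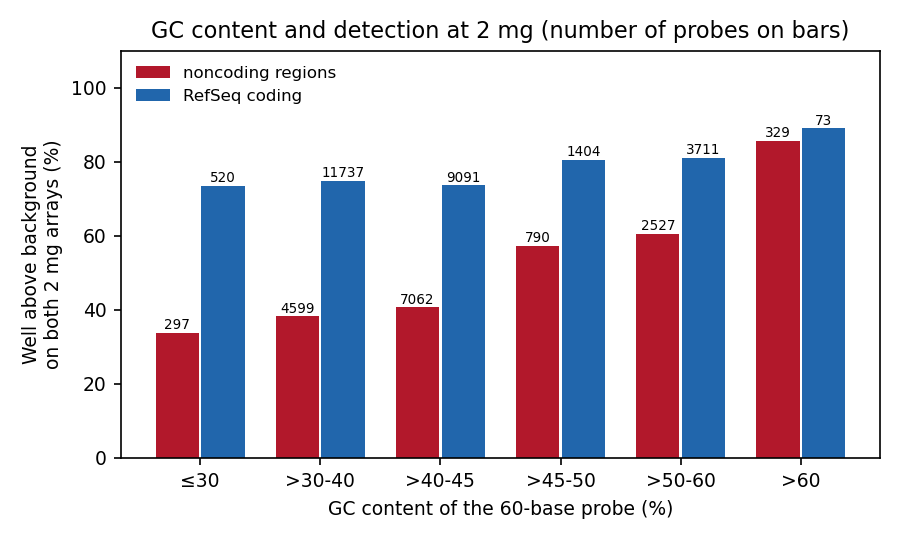
Share of probes well above background on both 2 mg arrays (%, vertical axis) against the GC content of the probe (%, horizontal axis, in 6 classes), for noncoding region probes and RefSeq coding probes, with the number of probes on each bar. The region bars rise from 33.7% to 85.7%, while the coding bars lie between 73.5% and 89.0%.

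The distance and strand of the nearest coding transcript were taken from the mm9 positions of the probes, and no gene annotation other than the array's own was used. The median distance from a region probe to the nearest coding probe was 32684 bp. Region probes within 5 kb of a coding probe of the same strand were well above background on both 2 mg arrays in 66.1% of 927 cases, against 37.7% of 1094 cases where that neighbour was on the opposite strand. This difference stood on 6 of 6 arrays, with a mean of 22.5 percentage points ± 12 (SD, n = 6 arrays; exact permutation test, two-sided p = 0.0312, adjusted 0.0391). At 5 to 50 kb the shares were 47.0% and 44.1%, and the mean difference over the arrays was 2.32 points ± 1.46 (same side on 6 of 6 arrays, exact permutation p = 0.0312, adjusted 0.0391). At 50 to 500 kb they were 42.8% and 41.3%, with a mean difference of 0.998 points ± 1.09 that did not pass (exact permutation p = 0.125). Region probes within 5 kb of a coding probe that was itself well above background gave 52.3%, and those next to one that was not gave 37.9%.

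**Figure D3:**
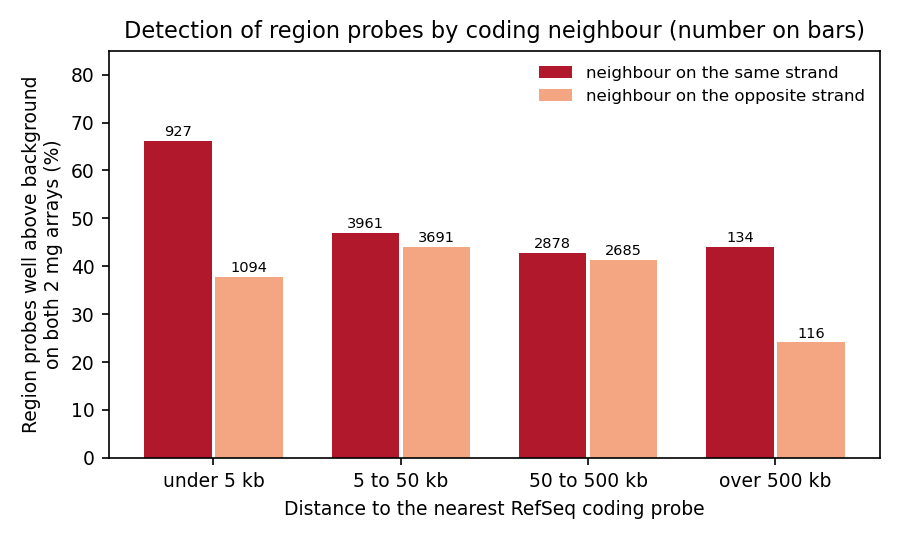
Share of region probes well above background on both 2 mg arrays (%, vertical axis) by distance to the nearest RefSeq coding probe (horizontal axis) and by whether that probe lies on the same or the opposite strand, with the number of region probes on each bar. Under 5 kb the bars stand at 66.1% and 37.7%, and at 5 to 50 kb they stand at 47.0% and 44.1%.

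Some regions were not clear of coding transcripts. A coding probe lay inside 241 of the 4429 regions (5.44%), on the same strand in 138. Region probes were well above background at 2 mg in 65.2% of cases in those 138, in 39.3% where the coding probe was on the opposite strand alone, and in 44.4% in the 4188 regions that span no coding probe. In addition, 74 region probes had the same 60 bases as a probe with another name, of which 10 were named for a RefSeq coding accession (E2f6, a transcriptional repressor of the E2F family, and Man1a2, a mannosidase of the Golgi, among them) and 11 for a RefSeq noncoding accession (Pvt1, Dleu2 and the microRNA host Mir17hg among them). For such probes the region and the named transcript cannot be told apart. The duplicates also show the technical spread, because over the 46 that were well above background at 2 mg the median absolute log2 difference between both copies was 0.10 and 0.09 on the 2 mg arrays, 0.08 on female 20 mg replicate 1, 0.17 and 0.19 on the male 20 mg arrays and 0.52 on female 20 mg replicate 2.

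At the 1042 places named on both strands, 656 (63.0%) had a probe well above background on both strands at 2 mg, 314 (30.1%) on 1 strand alone and 72 (6.91%) on neither. In 90 places every probe of 1 strand and no probe of the other was detected. Where probes of opposite strands overlapped by at least 30 bases, which held for 1556 probe pairs, 1 probe alone was well above background in 46.3% and both in 20.4%.

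On the chr3 place shown at the outset, the reverse strand had a normalized signal of 12.10 (log2) on the female 2 mg array and 12.34 on the male 2 mg array, with 11.78 and 9.92 in females and 9.78 and 12.12 in males at 20 mg. The forward strand stayed between 3.32, the floor of the scale, and 4.61. The reverse-strand probe lies 17839 bp from a probe of Zfp704, a zinc finger gene, on the same strand. On the chr5 place the forward strand gave 11.45 and 11.96 at 2 mg in females and males and the reverse strand 12.67 and 11.96, with 10.40 to 12.12 and 10.50 to 12.37 on the arrays at 20 mg. Both strands there were well above the floor on each array.

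Off chromosome 18, 18 places had 1 strand on all 6 arrays and no probe of the other strand on any. The first of them by brightness lay at chr17:86560289-86565864, 2496 bp from Prkce, a protein kinase C isoform, and 504 bp from a probe named BC110486 on the same strand. Its reverse strand ranged from 11.24 to 13.82 over the 6 arrays and its forward strand was at the floor on each. At chr12:16833551-16901804 the forward-strand probe, with 9.83 to 11.07, carries the sequence of E2f6, while the reverse strand did not exceed 3.63 and was not well above background on any array. At chr1:52507332-52514490 the reverse strand, 950 bp from a probe of Nab1 on the same strand, ranged from 10.56 to 12.11. Both strands were on all 6 arrays in 57 places off chromosome 18 by their brightest probes. The pair with the highest dimmer strand was chr12:73838608-73862621, at 15.71 and 15.55 on the forward and 15.64 and 15.45 on the reverse strand at 2 mg, with probes of 80% and 78.3% GC that lie 29247 bp and 29320 bp from a probe of Ppm1a, a protein phosphatase.

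Of the 8 brightest regions at 2 mg, 6 are described, and 4 of their sequences are shown because their base composition differs, with CG dinucleotides in capitals.

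chr19:5802130-5802189, reverse strand: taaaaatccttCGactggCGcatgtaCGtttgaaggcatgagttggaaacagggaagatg
chr14:78936616-78936675, forward strand: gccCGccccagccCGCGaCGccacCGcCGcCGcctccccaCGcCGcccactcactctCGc
chr12:73862399-73862458, forward strand: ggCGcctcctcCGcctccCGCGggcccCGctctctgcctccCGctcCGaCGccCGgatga
chr6:83406215-83406274, forward strand: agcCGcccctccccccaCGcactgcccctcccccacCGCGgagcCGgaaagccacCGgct

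The brightest was chr19:5801802-5802597 on the reverse strand, 6238 bp from a probe of NEAT2, an older name of Malat1, on the same strand. Its probe (45% GC) read 16.62 on the female and 17.20 on the male 2 mg array, and 17.44, 13.16, 16.43 and 16.05 on female replicates 1 and 2 and male replicates 1 and 2 at 20 mg. The probe named Malat1, at chr19:5795713-5795772, read 10.69 and 10.99 at 2 mg and 10.59, 11.43, 10.93 and 10.05 at 20 mg in the same order. Whether the region and Malat1 are separate transcripts was not tested. All 3 probes of the region were lower than at 2 mg on each array at 20 mg other than female replicate 1, where they were higher by 0.43 to 0.82. In contrast, chr11:22681800-22707775 on the reverse strand (35% GC), 48130 bp from B3gnt2, varied by little, with 16.14 and 16.19 at 2 mg and 16.38, 16.31, 15.79 and 16.04 at 20 mg.

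Another 4 bright regions were bright by a probe of 75% to 83.3% GC, whose values are given here. The chr14:78924115-78938125 region read 15.73 and 15.77 at 2 mg, 14.78 and 15.11 in females and 15.00 and 17.22 in males at 20 mg. The chr12 region read 15.71 and 15.55 at 2 mg, 14.23 and 12.29 in females and 11.58 and 17.40 in males at 20 mg. At chr6:83368261-83407280 the values were 15.37 and 15.24 at 2 mg, 14.27 and 13.40 in females and 13.70 and 17.03 in males at 20 mg. The chr17:39982023-39983277 region, which lies at a probe named BC031453 of the same strand, read 15.71 and 15.65 at 2 mg, 15.00 and 14.61 in females and 14.37 and 17.31 in males. All 4 of these probes were above the 2 mg level on male 20 mg replicate 2 alone, and below it on the other 3 arrays. Mean log2 signals at 2 mg of the other probes were 3.32 to 6.94 in the chr14 region and 3.32 to 6.86 in the chr12 region. In the chr6 region they were 3.32 to 12.67, and in the chr17 region 11.83 and 12.44.

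By the fold rule of the study (probes kept by a variation filter and past 2.5-fold between the mean of the 20 mg arrays and the 2 mg array of a sex), 339 region probes were down-regulated and 359 up-regulated in males from the higher maternal FA group. These are 2.17% and 2.30% of the region probes, against 2.17% and 1.42% of all probes. In females 1371 were down-regulated and 2061 up-regulated, 8.79% and 13.2% of the region probes against 10.3% and 8.65% of all. No test was made of these differences in share, and their order depended on single arrays. Both male arrays at 20 mg lay on slides other than that of the male 2 mg array. Dose and slide thus cannot be told apart in males, here or in the male differences below. In females, replicate 1 alone shared the slide of the 2 mg array. Without female 20 mg replicate 2, 675 region probes were down-regulated in females (4.33%, against 2.58% of all probes) and 203 up-regulated (1.30%, against 1.77%), so that both orders turned. The male counts without that array were 652 down (4.18%, against 3.97%) and 594 up (3.81%, against 2.56%).

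Leaving out a male array moved 1 male count by over 3 times in each case. Without male 20 mg replicate 2, 1091 region probes were down-regulated (6.99%, against 5.08% of all) and 399 up-regulated (2.56%, against 2.76%), and without male 20 mg replicate 1 the counts were 353 (2.26%, against 2.61%) and 1195 (7.66%, against 4.26%). With the requirement that a probe be well above background on at least 2 arrays, 833 were up-regulated in females (5.34%, against 3.63%). A shift of each array to a common 75th percentile in place of quantile normalization gave 105 down (0.673%, against 0.494%) and 208 up (1.33%, against 0.765%) in males, and 116 down (0.743%, against 0.636%) and 862 up (5.52%, against 3.09%) in females.

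**Figure D4:**
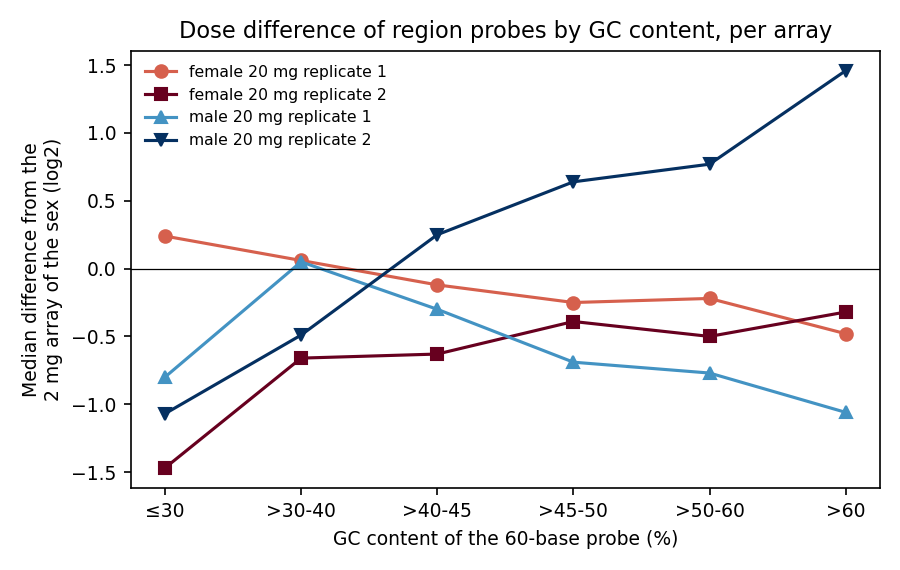
Median log2 difference (vertical axis) of the region probes tested between each array at 20 mg and the 2 mg array of its sex, by GC content of the probe (%, horizontal axis, in 6 classes), with 1 line per array. The lines of the male replicates part as GC rises, to -1.06 and 1.46 over 60% GC, and the line of female replicate 1 falls from 0.24 to -0.48.

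The replicate arrays at 20 mg did not move alike. Over the 8076 region probes well above background on at least 2 arrays, the median log2 difference from the 2 mg array was -0.36 on male replicate 1 and 0.29 on male replicate 2, where all 37206 probes tested gave 0.09 and -0.16. In females it was -0.13 and -0.59 on replicates 1 and 2, against 0.03 and -0.48 over all probes. The median of the female mean difference was -0.32 (all probes -0.21), but 0.70 under the 75th percentile shift, where all probes gave 0.45, and 0.02 with no filter on dim probes, so its direction depended on the processing. On male replicate 1, 22.5% of these region probes were lower and 5.94% higher by at least 2.5-fold (13.1% and 6.29% over all probes), and on male replicate 2 7.75% were lower and 21.0% higher (8.25% and 10.0%). On female replicate 1 the shares were 5.96% lower and 1.47% higher (3.06% and 1.95%), and on female replicate 2 36.1% and 24.4% (34.3% and 18.5%). Between the male replicates at 20 mg, 55.2% of the region probes were apart by 2.5-fold or more (38.2% of all), and between the female replicates 60.8% (54.2%).

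These array differences moved with base composition. Over 60% GC (298 probes) the median difference was -1.06 on male replicate 1 and 1.46 on male replicate 2, and between 30% and 40% GC (2021 probes) it was 0.05 and -0.49. On female replicate 1 the same classes gave -0.48 and 0.06, and on female replicate 2 -0.32 and -0.66. The male replicates lay on different slides, and slide, extraction batch and array cannot be told apart there. The summed level of 8 forebrain marker genes, all well above background on both 2 mg arrays, was 14.14 and 13.45 (log2) on the female and male 2 mg arrays and ranged from 14.33 to 16.18 at 20 mg, highest on replicate 2 of each sex, while that of the 12 cerebellar genes ranged from 15.05 to 15.89 over all arrays. For 4 choroid plexus genes it ranged from 12.44 on the female 2 mg array to 16.26 on female 20 mg replicate 1. In pooled tissue, fewer cells of a type and less RNA per cell cannot be told apart, and the part of tissue makeup in the region values was not tested.

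Within the first slide, which held both 2 mg arrays and female 20 mg replicate 1, 257 region probes (3.18%, against 1.55% of all probes tested) were lower by at least 2.5-fold on the 20 mg array than on both 2 mg arrays, and 24 (0.297%, against 0.519%) were higher. Between both 2 mg arrays the difference was as large at 95 region probes lower in females (1.18%, against 0.707%) and 70 higher (0.867%, against 0.763%).

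No region probe passed an adjusted p of 0.05 in limma, in which the spread between the arrays at 20 mg stands in for that of the single 2 mg arrays. The percentage called was 0% of 37206 probes for dose in males, dose in females, dose over both sexes and the interaction of dose and sex, and every adjusted p rounded to 1. At an unadjusted p under 0.05 there were 20 region probes in males, or 0.248% of those tested against 0.199% of all probes tested. There were 35 in females (0.433%, against 0.433%), 33 over both sexes (0.409%, against 0.387%) and 15 for the interaction (0.186%, against 0.137%). Counts without female 20 mg replicate 2 are not given here, since that fit leaves 1 array in each female group. The median standard error of the log2 difference was 1.83 within a sex and 1.30 over both sexes (log2), above the 2.5-fold of the fold rule within a sex, and precision is limited by having 6 arrays. Calls appeared in some fits with an array left out. Such fits leave 1 array at 20 mg in a sex, so their counts are not read as results.

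A more demanding criterion asked for 2.5-fold in the same direction on all 4 arrays at 20 mg and a signal well above background on every array of a dose. It left 5 region probes that were lower, in 4 regions (0.0320%, against 0.0251% of all probes), and 1 that was higher (0.00641%, against 0.0233%). The lower count was 1 under the 75th percentile shift, 1 under normexp and 0 with the mean signal, and the higher count 0 under the last 2. The sequences are shown to identify the probes that met the criterion, and in the region that was higher, all 3 probes are printed with the bases in words of 12 letters that occur more than once within the probe in capitals.

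chr11:22518673-22518732, lower: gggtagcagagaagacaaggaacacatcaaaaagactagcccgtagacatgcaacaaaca
chr1:183953481-183953540, lower: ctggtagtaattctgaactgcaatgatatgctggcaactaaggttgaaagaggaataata
chr1:183953541-183953600, lower: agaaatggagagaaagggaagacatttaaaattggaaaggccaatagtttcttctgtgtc
chr3:68875343-68875402, lower: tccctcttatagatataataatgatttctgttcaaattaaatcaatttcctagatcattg
chr4:140841493-140841552, lower: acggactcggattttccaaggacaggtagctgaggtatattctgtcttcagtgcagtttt
chr3:151750918-151750977, higher: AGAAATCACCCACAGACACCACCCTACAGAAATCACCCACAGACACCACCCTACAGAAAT
chr3:151750992-151751051, higher: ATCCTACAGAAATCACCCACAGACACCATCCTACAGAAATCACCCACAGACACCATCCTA
chr3:151751053-151751112, higher: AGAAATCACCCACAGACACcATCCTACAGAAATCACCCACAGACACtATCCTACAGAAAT

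The region that was higher, chr3:151746091-151753763 on the forward strand, lies 6196 bp from a probe of Gipc2 on the opposite strand, and its probes are made almost whole of copies of a tandem repeat. The probe that met the criterion read 4.02 on the female 2 mg array and 5.47 and 10.45 at 20 mg, and 4.40 on the male 2 mg array and 6.30 and 5.93 at 20 mg. The other probes of the region were also above their 2 mg level on all 4 arrays, by 0.79 to 5.98 and by 0.77 to 5.57. The female mean difference was at least 14.9-fold, a lower bound because the 2 mg array was not well above background, and 1 array sets it, while the male difference was 3.29-fold. In limma the difference over both sexes was 2.83 ± 1.62 (SE, log2; unadjusted p = 0.0955, adjusted p = 1), and 1.87 ± 1.19 without female 20 mg replicate 2. Words repeated within a probe occur in 146 region probes (0.936%), of which the 106 tested had median differences of -0.06 and 0.44 on female and -0.81 and 0.78 on male replicates 1 and 2.

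Among the probes that were lower, that of chr11:22510175-22522025 on the forward strand showed the largest difference. It read 8.85 on the female and 6.84 on the male 2 mg array, and 3.32, 4.57, 3.41 and 3.52 on female replicates 1 and 2 and male replicates 1 and 2 at 20 mg, where it was not well above background on any array. The fall was at least 6.79-fold in females and at least 3.38-fold in males, and in limma -4.14 ± 1.17 over both sexes (SE, log2; unadjusted p = 0.00196, adjusted p = 1). The bound sets the 2 mg value against the lowest signal that counted as well above background on the arrays at 20 mg. The other 5 probes of this region read 3.32 to 4.27 at 2 mg, at or near the floor, and so had little or no room to fall. Without female 20 mg replicate 2 the limma difference was -5.19 ± 1.14.

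In chr1:183951156-183986156 on the reverse strand, 2 probes that adjoin each other without a gap were lower together. The first read 7.20 and 7.49 at 2 mg in females and males, and 3.32 and 3.32 in females and 4.41 and 5.55 in males at 20 mg. The second read 5.87 and 6.14 at 2 mg and 3.32, 3.32, 3.32 and 3.87 at 20 mg. The fall of the first was 5.69-fold in males and at least 2.15-fold in females. That of the second was at least 2.09-fold in males, and no bound is given for females. These bounds lie under 2.5-fold, since the criterion used values that included the floor. The groups did not overlap at either probe, which follows from the criterion that selected both probes, given how close their 2 mg values lie. The other 3 probes of the region read 3.32 to 4.64 at 2 mg, near the floor, and so had little or no room for a fall of this size. The nearest coding probe, of the signal recognition particle subunit Srp9, was 105244 bp away on the opposite strand.

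The chr3:68867193-68876128 probe, of 25% GC and 790 bp from a probe of the nuclear import receptor Kpna4 on the opposite strand, read 7.19 and 6.59 at 2 mg, 4.90 and 3.32 in females and 3.32 and 4.93 in males at 20 mg. It was 1 of 10 probes of its region, of which 7 were not well above background on any array. The probe at chr3:68875111-68875170, well above background on 5 arrays, read 6.69 and 6.23 at 2 mg in females and males. At 20 mg that probe differed by -1.66 and 1.96 on female replicates 1 and 2, and by -0.72 and -0.34 on male replicates 1 and 2. It thus did not share the fall past 2.5-fold. The chr4:140841206-140841639 probe read 5.89 and 6.21 at 2 mg and 3.32, 4.08, 3.46 and 3.32 at 20 mg, and the other 2 probes of the region stayed at or under 4.68 on all arrays. Its fall was at least 2.19-fold in males, a bound under 2.5-fold, and no bound is given for females. On the 3 arrays other than female 20 mg replicate 2, 14 region probes were lower by the same criterion (0.0897%, against 0.0593% of all probes) and 1 was higher (0.00641%, against 0.0431%).

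**Figure D5:**
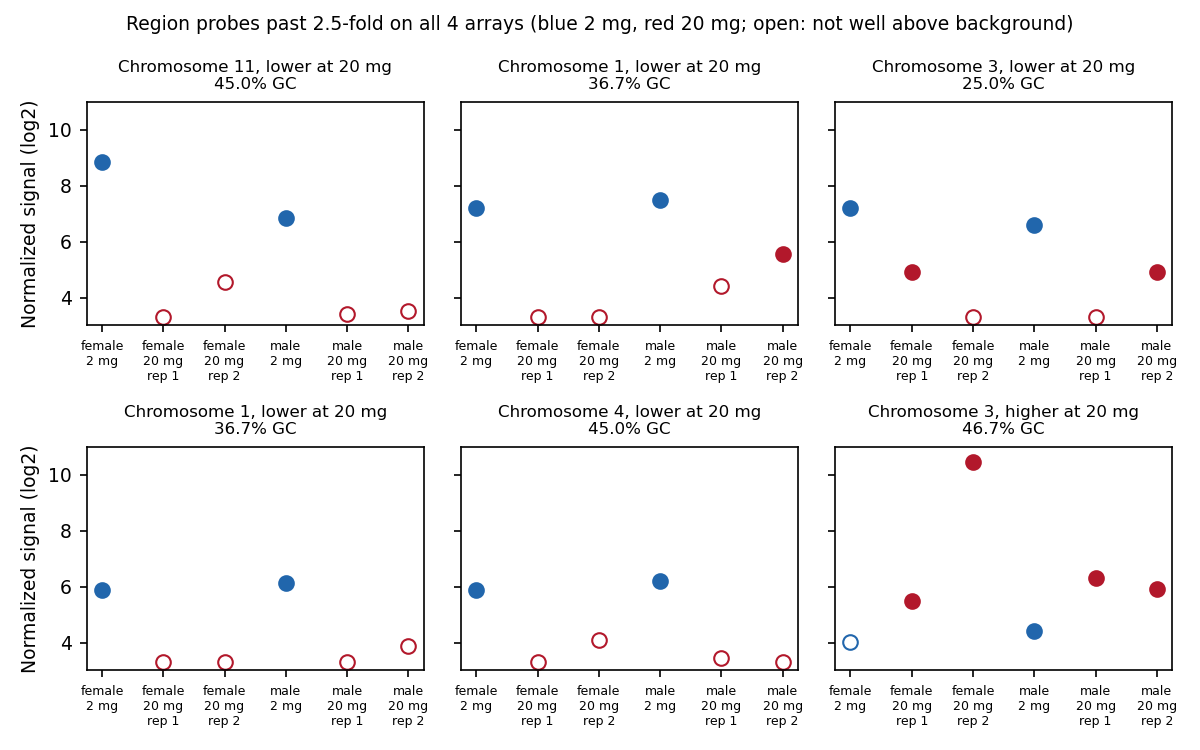
Normalized signal (log2, vertical axis) on each of the 6 arrays (horizontal axis) of the 6 region probes past 2.5-fold in the same direction on all 4 arrays at 20 mg, with blue points at 2 mg, red points at 20 mg and open points where the probe was not well above background. In 5 panels the red points lie below both blue ones, between the floor of 3.32 and 5.55, and in the other panel they lie above, up to 10.45 on the array labelled female 20 mg replicate 2.

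Taking the median over the probes of a region, 2 of the 2121 regions with at least 2 probes tested were lower by 2.5-fold on all 4 arrays and 0 were higher. In 1307 regions with at least 3 probes tested, the SD of the mean dose difference between probes of the same region had a median of 0.57, where the SD over all these probes was 0.89, and 79 of them lay below 0 and 36 above 0 on all 4 arrays. Without female 20 mg replicate 2, 2 of the 2121 regions were again lower by 2.5-fold and 0 higher, and 107 and 80 of the 1307 lay below and above 0. The same counts were not made for other transcripts, so these are not read as a result about the regions.

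In males, the largest falls past 2.5-fold on both arrays were of probes near the floor at 20 mg. At chr2:117024098-117025009 on the reverse strand the male 2 mg array read 9.44 and both male arrays at 20 mg 3.32, a fall of at least 20.5-fold, while the female arrays, 2 mg included, stayed between 3.32 and 3.37. At chr3:27760757-27761151 the male values were 8.48 against 3.70 and 3.32 (at least 10.5-fold), and the female ones, not well above background on any array, 3.32 against 3.32 and 5.82. At chr4:149383134-149451259 the male values were 8.74 against 3.70 and 3.33 (at least 12.7-fold), with 3.97 on the female 2 mg array. At chr10:83181374-83249918 they were 9.02 against 3.32 and 3.32 (at least 15.3-fold), with 5.98 on the female 2 mg array. In these 4 regions the male 2 mg array was the highest of the 6.

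The largest rise in males was at chr5:108538417-108550517 on the forward strand, 1152 bp from Mtf2, a Polycomb-like protein. Its probe read 7.17 at 2 mg and 18.70 and 9.89 at 20 mg, and 7.19, 6.35 and 8.52 in females, so that male replicate 1 set the mean difference. At chr17:24152225-24169870 on the reverse strand, with 9 of 9 probes well above background at 2 mg, the male values were 4.73 against 7.22 and 8.59, and the female ones 5.10 against 3.87 and 8.53. The other rises named by the rule, at chr2:153163620-153170845 and chr11:95627874-95640824, were of at least 3.36-fold and at least 3.06-fold in males.

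In females the largest falls had wide spread at 20 mg. At chr9:100977450-100989325 the probe read 13.49 at 2 mg and 6.93 and 3.32 at 20 mg, and in males 7.58 against 4.12 and 9.96. At chr5:22801058-22939737 the female values were 11.27 against 3.90 and 5.97, and the male ones 11.10 against 3.87 and 12.45. At chr4:94742359-94822969 the values were 15.21 against 13.55 and 3.32 in females and 14.94 against 11.55 and 16.93 in males. Its nearest coding probe, of the immediate early gene Jun, was 105855 bp away. At chr7:86651948-86675223 the values were 12.97 against 10.63 and 3.79 in females and 12.77 against 9.0 and 15.07 in males. In these regions male replicate 2 was above the male 2 mg array and the other 3 arrays at 20 mg were below the 2 mg array of their sex.

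Female rises were highest on replicate 2 in each region named. At chr17:87674225-87682154 the values were 3.39 against 6.44 and 10.19 (at least 19-fold), at chr8:124355710-124401160 3.38 against 4.91 and 11.44 (at least 17.3-fold), at chr9:65647428-65677009 3.39 against 5.10 and 10.42 (at least 12.9-fold), and at chr2:168804720-168854970 4.75 against 6.90 and 10.95 (18-fold). The rule that named these regions asked for 2.5-fold on both replicates, and on replicate 1 the rises were 1.53 to 3.04 on the log2 scale.

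Among the 5 region probes with the lowest unadjusted p over both sexes in limma, 3 were described above as lower on all arrays. The others were chr9:82991830-82999937, at 5.20 and 6.96 at 2 mg and 3.32, 4.10, 3.57 and 3.32 at 20 mg (-2.50 ± 0.90, SE, log2; adjusted p = 1; -3.32 ± 0.92 without female 20 mg replicate 2), and chr13:73472571-73483846, at 11.47 and 12.43 at 2 mg and 7.71, 7.15, 6.93 and 12.64 at 20 mg (-3.35 ± 1.21; adjusted p = 1; -3.18 ± 1.62 without that array).

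Regions beside developmental transcription factor genes were described apart, because such pairs are a known arrangement of long noncoding RNAs. With a list of 101 such factors, 51 regions had one as the nearest coding gene of their brightest probe within 100 kb, next to 23 genes. In 42 of them (82.4%) this probe was well above background on both 2 mg arrays, where all regions within 100 kb of any coding probe gave 72.5%. Of the 175 probes nearest to a listed gene within 100 kb, 48.0% were well above background, and by the fold rule 6 were down-regulated (3.43%, against 2.17% of all probes) and 6 up-regulated (3.43%, against 1.42%) in males. In females 25 were down-regulated (14.3%, against 10.3%) and 19 up-regulated (10.9%, against 8.65%). Without female 20 mg replicate 2 the female counts were 5 (2.86%, against 2.58%) and 8 (4.57%, against 1.77%). The male counts were then 10 (5.71%, against 3.97%) and 6 (3.43%, against 2.56%).

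The brightest lay on the reverse strand at chr14:49314574-49358174, 37338 bp from Otx2, the homeobox factor of forebrain and midbrain, and 63 bp from a probe of Gm3552. It read 13.46 and 13.61 at 2 mg in females and males, 13.82 and 9.19 in females and 9.73 and 13.17 in males at 20 mg. The forward strand of the same place read 9.03 and 8.80 at 2 mg, 7.43 and 12.93 in females and 8.91 and 13.44 in males. Both probes were well above background on all 6 arrays. The reverse strand was lowest on female replicate 2 and male replicate 1, and the forward strand highest on replicate 2 of both sexes.

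At 50921 bp from Pou3f3, the POU domain factor also called Brn1, the reverse strand of chr1:42689799-42749799 read 13.14 and 12.93 at 2 mg and 12.80, 14.83, 13.57 and 12.43 at 20 mg. A probe named BRN1-A lies at the same position. The forward strand of that place read 9.61 and 9.16 at 2 mg and 8.83, 8.98, 7.57 and 12.13 at 20 mg. At chr1:42758928-42771337, 3057 bp from Pou3f3 on its strand, the values were 8.80 and 8.58 at 2 mg and 9.43, 3.32, 9.86 and 7.75 at 20 mg. The forward strand of chr2:33500594-33501874, 6729 bp from the LIM homeobox gene Lmx1b, read 11.39 and 11.03 at 2 mg and 10.19 to 11.66 at 20 mg.

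Of the regions of this list that are named, the one with the smallest range over the 6 arrays was chr19:19005109-19008657 on the reverse strand, 1714 bp from Rorb, a nuclear receptor, on the same strand, with 11.11 and 10.82 at 2 mg and 10.98, 11.20, 11.11 and 11.38 at 20 mg. At 75775 bp from Sox4, a SoxC factor of young neurons, chr13:29106280-29120376 read 8.65 and 8.42 at 2 mg and 8.32, 3.32, 7.72 and 7.19 at 20 mg. At 95631 bp from Sox4, chr13:28947034-28949166 read 8.25 and 8.43 against 8.42, 6.56, 9.01 and 8.55. At 34606 bp from Irx5, an Iroquois homeobox factor, and 1 bp from a probe of 4933436C20Rik, chr8:94841965-94881130 read 8.23 and 9.15 against 8.11, 3.34, 9.25 and 7.62. At 3407 bp from Pou3f1, chr4:124206166-124334412 read 8.80 and 9.0 against 8.00, 5.56, 6.76 and 11.61. For these regions with Sox4 or Irx5 as the nearest coding gene, female 20 mg replicate 2 was the lowest array and was not well above background.

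For comparison, 19 of 33 long noncoding RNAs known by a symbol had a probe, and the brightest probe of 15 was well above background on both 2 mg arrays and that of 9 on all 6. Meg3 read 15.27 and 15.16 at 2 mg and 15.52, 15.40, 16.18 and 15.31 at 20 mg, and Peg13, an imprinted brain transcript, 14.31 and 13.98 against 14.18, 15.23, 14.47 and 13.99. By the fold rule, 1 was down-regulated in males (Tsix, the antisense transcript of Xist), and in females 1 was down-regulated (Sox2ot, 7.81 against 8.20 and 3.32) and 2 were up-regulated (Mirg, a microRNA host of the imprinted Meg3 cluster, 11.80 against 11.90 and 14.74, and Tsix, 4.85 against 5.07 and 8.00). All 3 female calls rested on replicate 2, since female replicate 1 differed from the 2 mg array by 0.10 to 0.39.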

How the data were processed

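RNA of P1 cerebellum was measured on 6 single-colour arrays in 4 groups of sex and dose. The intensities are processed signals that the authors made with Agilent Feature Extraction 10.7.3.1 and deposited without scaling between arrays, together with a score for each spot that is a flag, well above background or not. The log2 values of the authors' deposited table had been quantile normalized with a floor and served as an alternative.

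Control spots and outlier flags were left out, spots of a probe were averaged, and log2 signals of 55681 probes were quantile normalized and raised to a signal of 10 (3.32 on the log2 scale). The fold rule needs a variation filter p of at most 0.05 and 2.5-fold. It and a limma 3.58.1 fit in R 4.3.3 (4 groups, trend, 2 residual degrees of freedom, Benjamini-Hochberg adjustment, 37206 probes well above background on at least 2 arrays; 41 left out for a missing value) were run over all probes and tested on simulated data. Where all arrays of a dose were not well above background, a fold is a bound against the lowest signal flagged as well above background.

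Positions of probes come from the array design, in build mm9. The p-values of limma rest on the spread between the 2 arrays at 20 mg of each sex, which differ in pool, slide and scan day. To that spread, with 2 residual degrees of freedom, limma adds a spread estimated over all probes tested, with 18.9 prior degrees of freedom. The p-values of the comparisons of shares measure how steadily a difference between fixed lists of probes held over the arrays.

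Regions were named by rules on brightness at 2 mg, on 2.5-fold differences in the same direction on all arrays at 20 mg or on both of a sex, on strand pairs, on the listed transcription factors and on the lowest p. The members, lists and rules were chosen with earlier results of these data known. Regions on chromosome 18 are not named. Alternatives were a 75th percentile shift, the floor set first, normexp with an offset of 50, the mean signal, the authors' table, other filters, slide and scan-day blocks and each array at 20 mg left out, and after seeing the data the criterion on every 20 mg array was repeated under them and further dose results were repeated without female 20 mg replicate 2.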

Additional observations from a re-analysis of the deposited data

Results flagged for a closer look

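In 3 of the named regions both female arrays at 20 mg lay above the female 2 mg array and both male arrays below the male one. The interaction of dose and sex in limma did not pass for any of them. At chr11:22681800-22707775 the mean difference was 0.21 in females (0.24 and 0.17) and -0.27 in males (-0.40 and -0.15), and the interaction was 0.48 ± 1.25 (SE, log2; unadjusted p = 0.707, adjusted p = 1 in limma). At chr5:35975265-35982561 on the forward strand it was 0.51 in females (0.67 and 0.35) and -1.04 in males (-1.57 and -0.51), with an interaction of 1.55 ± 1.5 (unadjusted p = 0.314, adjusted p = 1 in limma). At chr12:16833551-16901804 on the forward strand, whose probe is that of E2f6, it was 0.46 in females (0.42 and 0.49) and -0.65 in males (-0.84 and -0.47), with an interaction of 1.11 ± 1.65 (unadjusted p = 0.507, adjusted p = 1 in limma).

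Region names on the X chromosome, which the comparisons did not use, also gave signal, with 47.1% of 577 probes well above background on both 2 mg arrays. No group of sex and dose had 4 or more arrays, so no array was tested as standing apart within its group.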

How the results depend on the processing

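The number of arrays limits precision, and the spread between pools at 2 mg was not measured. No paired analysis was possible because the 2 mg arrays carry no replicate number and each sex has a single one. Shares in brackets are of region probes, against all probes. By the fold rule, down-regulated region probes in males numbered 105 under the 75th percentile shift (0.673%, against 0.494%), 112 under normexp (0.718%, against 1.1%) and 106 with the mean signal (0.679%, against 1.06%). With an array left out they numbered 269 (1.72%, against 1.88%) to 1091 (6.99%, against 5.08%). The count was 652 without female 20 mg replicate 2 (4.18%, against 3.97%) and 1091 without male 20 mg replicate 2. Up-regulated probes in males numbered 208 (1.33%, against 0.765%), 71 (0.455%, against 0.359%) and 67 (0.429%, against 0.334%) in the same order. With an array left out they numbered 311 (1.99%, against 1.23%) to 1195 (7.66%, against 4.26%). The count was 594 without female 20 mg replicate 2 (3.81%, against 2.56%) and 1195 without male 20 mg replicate 1. In females down-regulated probes numbered 116 (0.743%, against 0.636%), 392 (2.51%, against 3.98%) and 350 (2.24%, against 3.54%). With an array left out they numbered 675 (4.33%, against 2.58%) to 1679 (10.8%, against 13.7%). Up-regulated probes in females numbered 862 (5.52%, against 3.09%), 567 (3.63%, against 2.45%) and 469 (3.01%, against 2.04%). They numbered 1057 with the floor set first (6.77%, against 4.56%) and 958 in the authors' table (6.14%, against 4.24%). Among probes well above background on 2 arrays there were 833 (5.34%, against 3.63%). With an array left out they numbered 203 (1.30%, against 1.77%, without female 20 mg replicate 2) to 2514 (16.1%, against 10.6%). The other filters kept each count within 1.5 times.

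Calls by limma stayed at 0 except for 1 in females under the 75th percentile shift and with an array left out, where they ranged from 0 to 1 in males, 0 to 6 in females, 0 to 4 over both sexes and 0 to 1 for the interaction, the lone array then being assumed to vary like the others. The share of region probes well above background at 2 mg was 66.8% by the flag for positive and significant signal and 69.8% for the brightest probe of each region. The median difference in males was within the spread of the arrays throughout (-0.37 to 0.27 with an array left out). In females it was 0.70 under the 75th percentile shift (all probes moved from a median of -0.21 to 0.45), 0.02 with no filter on dim probes, and -0.66 to -0.15 with an array left out.

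The region probes lower by 2.5-fold on every 20 mg array numbered 1 under the 75th percentile shift (0.00641%, against 0.00359% of all probes) and 11 with the floor set first (0.0705%, against 0.0557%). They numbered 1 under normexp (0.00641%, against 0.0018%), 0 with the mean signal and 10 in the authors' table (0.0641%, against 0.0449%). The higher count was 1 (0.00641%) under the 75th percentile shift (against 0.0449% of all probes), with the floor set first (0.018%) and in the authors' table (0.0162%). It was 0 under normexp and with the mean signal, against 0.00718% of all probes under each. Of 28 differences named by the rules for dose, which were chosen for being past 2.5-fold on each 20 mg array, 19 of 140 comparisons with another normalization, background correction or table fell under 2.5-fold (9 with the mean signal, 8 under normexp and 2 under the 75th percentile shift), and 0 changed direction. The causes were not tested.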
